A study of Mus musculus with 24 samples.

Results

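In K-Luc cells, nanotubes dispersed in the oligonucleotide CpG-28 were compared with nanotubes dispersed in lipid-PEG. K-Luc is a luciferase-expressing derivative of the KR158B mouse glioma line from C57BL/6 mice. The members are all 3 libraries of CpG-coated nanotubes (SWNT/CpG, 10 µg/mL CpG-28 and 10 µg/mL single-walled carbon nanotubes) and all 3 libraries of lipid-PEG-coated nanotubes (SWNT/LP, 10 µg/mL nanotubes and 10 µg/mL lipid-PEG), 6 of the 24 libraries of the series. Both arms thus held nanotubes, and they differed in the oligonucleotide and the lipid-PEG at the same time. Beside them stand 3 K-Luc libraries given 10 µg/mL of each ingredient unjoined (CpG+SWNT/LP), 3 given 10 µg/mL CpG-28 with neither nanotubes nor lipid-PEG (CpG) and 2 untreated libraries (water). K-Luc cells adhered for 24 h and were treated for 17 to 19 h in a migration assay between culture-insert chambers, and RNA was taken from the cells lysed at its end. The same coatings were given to RAW-Blue cells, a RAW macrophage line with a reporter gene for NF-kB and AP-1, for 47 to 50 h, with 2 libraries per group. No group received an oligonucleotide without CpG, and nothing in the labels tells whether the replicates came from separate cultures, so the p-values rest on differences among these samples, which may be only technical.

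Unmethylated CpG DNA is a ligand of the endosomal receptor TLR9, which signals through MYD88 to NF-kB, and which immune cells such as macrophages carry. Cells in culture respond to signals and to their substrate through a few well-known programmes: cyclins and replication genes carry division, BMP receptors turn on the Id genes, TGF-beta receptors turn on matrix genes and their own inhibitors, and SRF with its cofactors turns on contractile genes. Glioma cells spread through brain tissue on matrix they partly make themselves.

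The libraries held 13628034, 21435659 and 21990065 counts in SWNT/CpG and 18432606, 22866346 and 22453177 counts in SWNT/LP. Levels are given in CPM, counts scaled to a common library total, and a gene at 1 CPM had 14 to 23 counts. SWNT/CpG replicate 1 was sequenced in run 1 and the other 5 libraries in run 2. The first principal component of the K-Luc libraries held 47.3% of the variance. It set the groups given CpG-28 (2.899 to 22.97) apart from those without it (-24.97 to -11.05). In each group of 3 libraries, replicate 1 also lay higher on it than replicates 2 and 3. There SWNT/CpG replicate 1 lay at 22.97, against 15.27 and 14.27 for replicates 2 and 3, and SWNT/LP replicate 1 at -11.05, against -24.97 and -23.16. Without replicate 1 of every K-Luc group, edgeR called 6190 genes between the coatings, against 5173 with all libraries. Of the 208 named genes called with all libraries, 204 were called again. No value within run 1 can be had, since it holds no SWNT/LP library. In run 2 alone 4509 genes were called.

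Levels are scaled by TMM, and differences are log2 fold changes, SWNT/CpG over SWNT/LP unless other groups are named, ± their standard error, from edgeR's quasi-likelihood test, with p-values adjusted by Benjamini-Hochberg across the 12420 genes tested. A gene is called at an adjusted p under 0.05. Of the tested genes 5173 were called (41.7%), 2665 of them higher in SWNT/CpG (21.5%) and 2508 lower (20.2%). Most of these differences were small: the median size among called genes was 0.33, and 3712 of them lay within 0.5. Over 2-fold, 209 genes were higher (1.68%) and 115 lower (0.926%). The median over all tested genes was 0.01. In 6047 genes (48.7%) the 3 SWNT/CpG libraries did not overlap the 3 SWNT/LP libraries. Genes named for the size of their difference were picked only from these, so their lack of overlap was fixed by the choice. With so large a background, counts of called members of a gene list need these shares beside them. The list's median is given for some lists. The share called was under 41.7% in oxidative phosphorylation (37.8%), cholesterol and fatty acid synthesis (36.7%) and lipid efflux, storage and oxidation (40%). It was also under it in TNF superfamily genes (37.5%), aryl hydrocarbon receptor targets (22.2%) and every cell type marker list. It was little above in interferon-stimulated (43.2%), focal adhesion (46.2%) and cytokine receptor genes (47.6%). The total called alone does not set these lists apart. The share was 52.2% in p53 target and apoptosis, 52.4% in endocytosis and scavenger receptor and 54.5% in BMP genes. It was 56% in TLR and CpG sensing, 57.1% in NRF2 and antioxidant, 57.9% in cytokine and 58.8% in mesenchymal genes. It was 59.1% in autophagy, 60% in iron, 60.6% in guidance and 60.9% in PDGF and VEGF genes. In bulk samples, fewer cells of a kind and less RNA per cell cannot be told apart.

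**Figure D1:**
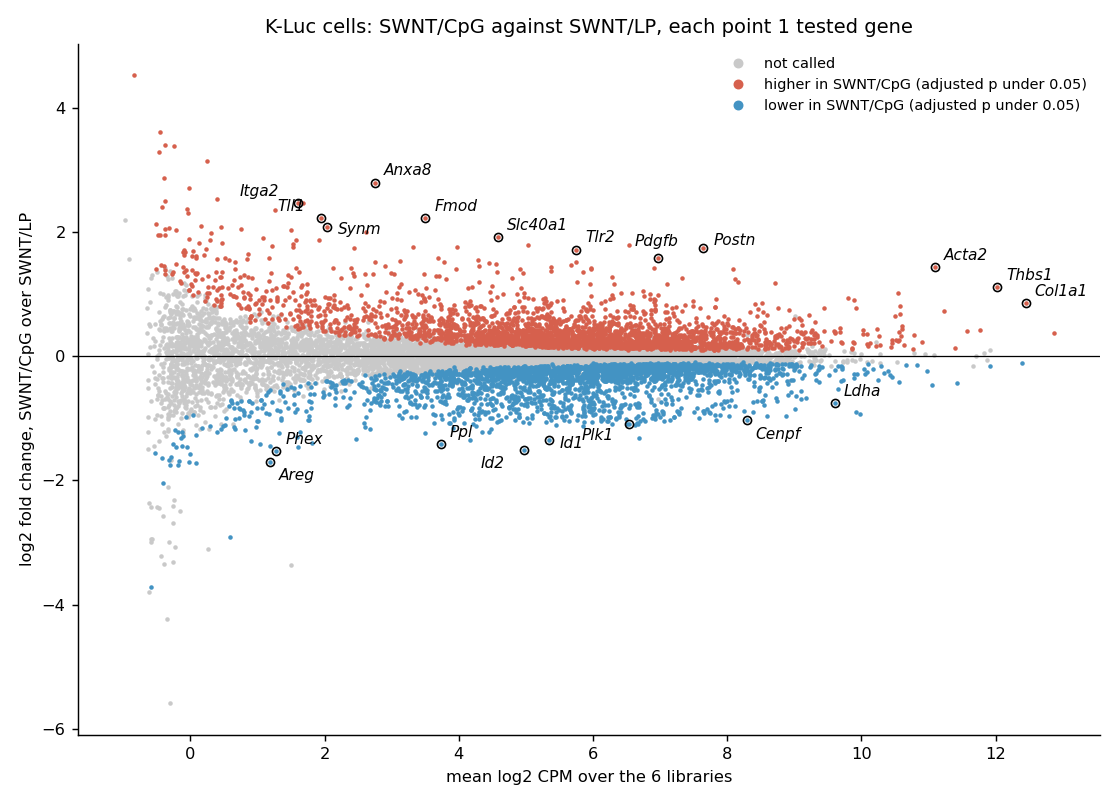
Each point is 1 tested gene, with its mean log2 CPM over the 6 libraries on the horizontal axis and its log2 fold change, SWNT/CpG over SWNT/LP, on the vertical axis. Red and blue points are the 2665 genes called higher and the 2508 called lower, grey points are not called, and the named genes are ringed.

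Among the gene lists, the most uniform difference was in genes of cell division, which were lower in SWNT/CpG. Of 40 mitosis genes 39 fell and 0 rose, with a list median of -0.95. Their summed level was 4943 to 5038 CPM in SWNT/CpG, 6674 to 7011 in CpG+SWNT/LP, 9086 to 10059 in SWNT/LP and 9258 to 9904 in untreated cells, so that no library of SWNT/CpG reached those of any other of these groups. Of 40 genes of DNA replication and S phase 40 fell, with a median of -0.78. Both counts were the same in run 2 alone and without replicate 1 of every group.

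Many mitosis genes carry a cell-cycle homology region (TTTGAA) and CCAAT boxes close to their start, where the DREAM and MuvB complexes and NF-Y are known to bind. The promoters of the mitosis genes with the smallest adjusted p that the RefSeq table holds are printed to show where these letters stand. Each runs 5′ to 3′ on the gene's strand from 250 bases before to 50 bases after the RefSeq start on GRCm38.p6, and capitals mark TTTGAA and CCAAT on either strand, where CCAAT read on the other strand is ATTGG. They lie at chr1:189688037-189688336 (minus strand) for Cenpf, chr7:122159185-122159484 (plus strand) for Plk1, chr11:40733388-40733687 (minus strand) for Hmmr and chr2:131186698-131186997 (plus strand) for Cdc25b.
Cenpf: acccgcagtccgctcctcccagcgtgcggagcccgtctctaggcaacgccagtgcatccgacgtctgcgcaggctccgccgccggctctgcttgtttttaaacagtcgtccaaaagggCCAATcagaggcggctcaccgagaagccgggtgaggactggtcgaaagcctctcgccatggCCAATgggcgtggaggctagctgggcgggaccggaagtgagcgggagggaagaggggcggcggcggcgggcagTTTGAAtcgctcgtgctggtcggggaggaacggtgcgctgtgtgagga
Plk1: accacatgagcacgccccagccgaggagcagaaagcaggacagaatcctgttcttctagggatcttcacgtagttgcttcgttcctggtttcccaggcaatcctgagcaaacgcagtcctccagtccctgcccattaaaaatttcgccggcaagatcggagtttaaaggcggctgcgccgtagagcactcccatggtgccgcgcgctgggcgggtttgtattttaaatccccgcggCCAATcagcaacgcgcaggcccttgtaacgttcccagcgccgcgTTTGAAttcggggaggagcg
Hmmr: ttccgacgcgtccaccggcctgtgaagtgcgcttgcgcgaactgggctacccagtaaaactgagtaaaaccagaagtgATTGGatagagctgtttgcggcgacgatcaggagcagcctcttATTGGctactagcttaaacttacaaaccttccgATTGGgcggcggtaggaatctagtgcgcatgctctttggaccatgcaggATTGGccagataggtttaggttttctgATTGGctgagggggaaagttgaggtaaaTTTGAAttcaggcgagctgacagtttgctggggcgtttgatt
Cdc25b: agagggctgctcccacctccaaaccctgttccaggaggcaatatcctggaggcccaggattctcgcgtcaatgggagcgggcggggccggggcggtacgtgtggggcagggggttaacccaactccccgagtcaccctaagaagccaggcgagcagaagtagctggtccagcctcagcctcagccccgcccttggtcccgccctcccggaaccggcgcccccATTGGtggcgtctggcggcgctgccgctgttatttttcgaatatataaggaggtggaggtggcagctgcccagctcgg

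Cenpf, Plk1 and Hmmr hold 1 TTTGAA each, in the bases that follow the start, and Cdc25b holds 0. The CCAAT count is 2 in Cenpf, 1 in Plk1, 5 in Hmmr and 1 in Cdc25b. Of the 40 mitosis genes 33 had an entry, with 36 windows. TTTGAA, searched on both strands, was in 27 of these windows (75%), against 11.6% of the windows of all tested genes and 17.9% of all 32851 windows of the table. In the replication and S phase list it was in 6 of 40 windows (15%), while TTTNNCGC, an E2F motif, was in 18 of 40 (45%), against 13.9% of mitosis windows and 8.31% of the windows of tested genes. CCAAT was in 77.8% of mitosis windows, 57.5% of S phase windows and 38% of the windows of tested genes. Among genes called lower by more than 0.5 on the log2 scale 26.3% of 681 windows held TTTGAA, against 12.1% of 687 windows of genes called higher by as much. A window can count under several of these motifs. A match is a description of these letters and not a site shown to be used.

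Cdc20 activates the anaphase-promoting complex. Its level was 83.4, 83.6 and 84.5 CPM in the SWNT/CpG libraries, against 165, 169 and 164 CPM in the SWNT/LP libraries. The groups were far apart, and each group's own libraries lay close together (-0.95 ± 0.04, adjusted p = 1.67e-10). Plk1, a kinase of mitotic entry and spindle assembly, had 63.7, 61.8 and 63.7 CPM in SWNT/CpG, against 137, 132 and 133 CPM in SWNT/LP (-1.09 ± 0.05, adjusted p = 1.67e-10). Cenpf (-1.03 ± 0.04) and Cenpe (-0.95 ± 0.04), both of the kinetochore, fell by about as much, and so did the phosphatase Cdc25b (-0.96 ± 0.04). The mitosis gene that was not called was Pttg1, which encodes securin (0.02 ± 0.06, adjusted p = 0.809), and the smallest called fall was that of the checkpoint gene Bub3 (-0.34 ± 0.05). Both were picked out after their values were seen.

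In S phase genes the falls were as regular. Lig1, the ligase that joins Okazaki fragments, had 80.1, 91.3 and 90.4 CPM in SWNT/CpG, against 163, 176 and 170 CPM in SWNT/LP (-0.91 ± 0.05, adjusted p = 2.67e-09). Tk1, the thymidine kinase of dividing cells, fell by 1.02 and the ribonucleotide reductase subunit Rrm1 by 0.74 on the log2 scale. Upstream of them, Ccnd1, the D-type cyclin that drives entry into S phase, had 281, 276 and 293 CPM in SWNT/CpG, against 476, 475 and 519.8 CPM in SWNT/LP, with no overlap (-0.79 ± 0.05, adjusted p = 7.38e-09). Of 13 D cyclin, CDK and inhibitor genes 2 rose and 6 fell, the pocket protein gene Rbl1 (-0.83 ± 0.08) and the inhibitor Cdkn2c (-0.43 ± 0.05) among the falls. The rises were 0 without SWNT/LP replicate 2, and 1 without SWNT/LP replicate 3, SWNT/CpG replicate 2 or 3 or CpG+SWNT/LP replicate 1 and when fitted on these 2 groups alone. Of 23 p53 target and apoptosis genes 9 rose and 3 fell (52.2% called, against 41.7% of all tested genes), with a median of 0.09. The death receptor gene Fas had 10.9, 12 and 11.1 CPM in SWNT/CpG, against 3.77, 4.67 and 4.1 CPM in SWNT/LP (1.46 ± 0.12, adjusted p = 1.05e-07), while the p53 target Cdkn1a, chosen after its values were seen, was not called (0.07 ± 0.14, adjusted p = 0.717).

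**Figure D2:**
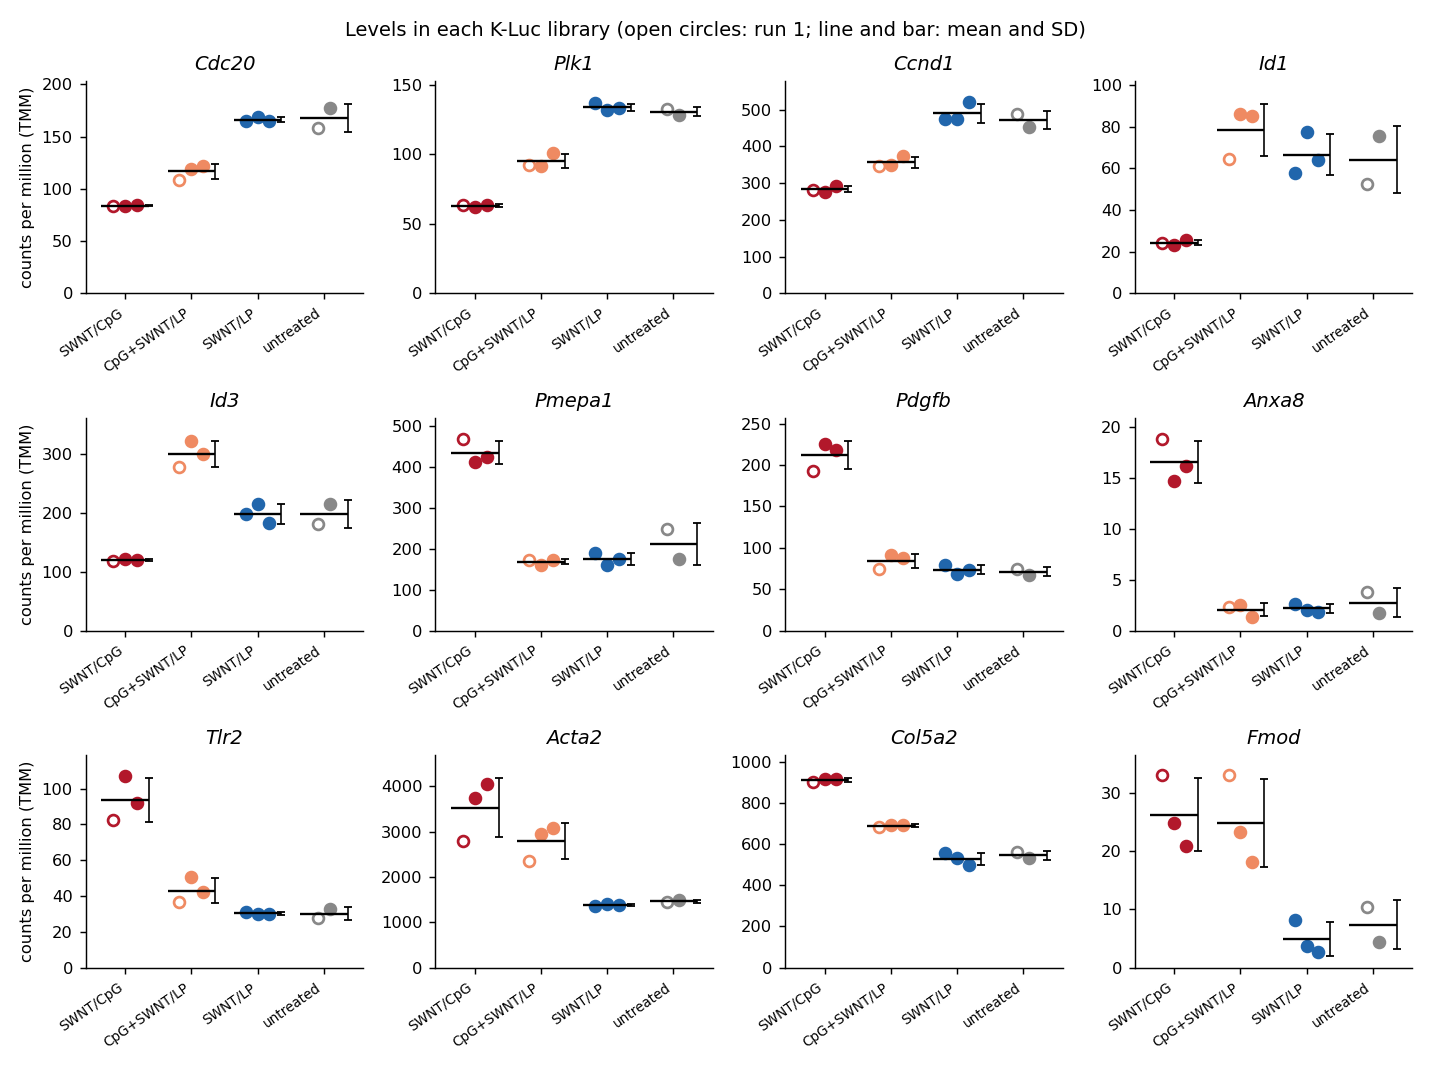
Level in CPM of each K-Luc library of SWNT/CpG, CpG+SWNT/LP, SWNT/LP and untreated cells (CpG alone is not drawn), with the group mean and SD beside the points and open circles for run 1. Cdc20 and Plk1 stand lowest in SWNT/CpG and highest in SWNT/LP and untreated cells, Pmepa1, Pdgfb and Anxa8 stand apart in SWNT/CpG among the groups drawn, and Acta2 and Fmod are high in SWNT/CpG and CpG+SWNT/LP.

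Id proteins bind basic helix-loop-helix factors and keep them off DNA, and their genes are direct targets of BMP signals. Id1 had 24.3, 23.2 and 25.4 CPM in the SWNT/CpG libraries, 64.2, 86.2 and 85.2 CPM in CpG+SWNT/LP, 67.2, 82.6 and 79.5 CPM in CpG alone, 57.9, 77.3 and 64.2 CPM in SWNT/LP, and 52.7 and 75.5 CPM in untreated cells. The SWNT/CpG libraries were the lowest of these, with no overlap (-1.36 ± 0.13, adjusted p = 2.01e-06). Id2 fell further, with 18.2, 18.8 and 17.6 CPM in SWNT/CpG, against 43.5, 66.5 and 50.0 CPM in SWNT/LP (-1.51 ± 0.18, adjusted p = 3.98e-05). Id3, the most abundant of the 4 Id genes per length in SWNT/LP at a mean of 140.6 RPKM in the authors' table, stood at 84.0 RPKM in SWNT/CpG (-0.68 ± 0.06 from the counts), and Id4 fell as well (-0.68 ± 0.09).

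The rest of the BMP list did not follow one direction. Of its 22 tested genes 6 rose and 6 fell (54.5% called, against 41.7% of all tested genes), with a median of 0.06. Ligand gene Bmp4 was not called, at 0.05 ± 0.10 (adjusted p = 0.721), and Bmp2 and Bmp7 were listed at 0 in all 6 libraries. A count of 0 or near it need not mean absence in these files. Hmgcs1, an enzyme of cholesterol synthesis that every cell uses, was listed at 0 in all 6 libraries, and Gapdh, a glycolysis gene of every cell, had 2.36, 2.41 and 2.6 CPM in SWNT/CpG, against 3.07, 5.15 and 3.47 CPM in SWNT/LP, both chosen after their values were seen. The receptor gene Bmpr1a (-0.03) and the signal transducers Smad1 (0.07) and Smad5 (0.11) were not called either. The extracellular BMP antagonist Chrd (0.94 ± 0.16) and the follistatin-like secreted protein gene Fstl1 (0.56 ± 0.04) rose, as did the inhibitory SMAD gene Smad6 (0.45 ± 0.09). Atoh8, a helix-loop-helix factor, fell (-0.36 ± 0.07).

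Among TGF-beta ligands, receptors and feedback genes 16 of 24 rose and 1 fell, with a median of 0.22. With the replicate number as a block 3 fell, and 2 without SWNT/LP replicate 1 or 2 or CpG replicate 1. Pmepa1, which TGF-beta induces and whose protein restrains SMAD signalling, had 467, 412 and 425 CPM in SWNT/CpG, 172, 161 and 172 CPM in CpG+SWNT/LP, 161, 169 and 180.4 CPM in CpG alone, 189, 161 and 175 CPM in SWNT/LP, and 248 and 175 CPM in untreated cells. All 3 SWNT/CpG libraries were above every library of these other groups (1.24 ± 0.08, adjusted p = 2.43e-08). The latent TGF-beta binding protein gene Ltbp2 rose by 1.26 ± 0.11 and the SMAD corepressor Skil by 0.45 ± 0.06. The coreceptor gene Tgfbr3 fell (-0.30 ± 0.06), while Smad2 (-0.04) and Smad3 (0.04), which carry the signal, were not called.

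Pdgfb, the ligand that drives glial and mural cell growth, had 193, 226 and 218 CPM in SWNT/CpG, against 78.6, 67.8 and 73.6 CPM in SWNT/LP. The groups did not overlap (1.58 ± 0.07, adjusted p = 1.67e-10). Its relative Pdgfc (0.51 ± 0.04), the receptor gene Pdgfrb (0.78 ± 0.10) and the coreceptor Nrp2 (0.60 ± 0.05) rose too. Lower were the receptor tyrosine kinase Met (-0.40 ± 0.05) and, at a low level, the EGF receptor ligand Areg, with 0.886, 1.09 and 0.788 CPM in SWNT/CpG, against 2.16, 4.36 and 3.16 CPM in SWNT/LP (-1.70 ± 0.30, adjusted p = 0.000328). In the list of PDGF and VEGF factors and receptors 8 of 23 rose and 6 fell.

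Matrix genes were higher in SWNT/CpG. Of 20 tested collagen genes 19 rose and 0 fell, with a median of 0.71, the one not called being Col18a1 (0.14 ± 0.07, adjusted p = 0.12). Their summed level was 17889 to 18915 CPM in SWNT/CpG, 15428 to 16196 in CpG+SWNT/LP, 9747 to 12391 in SWNT/LP and 10194 to 12356 in untreated cells, with no overlap between the first of these 4 groups and the others. Col5a2, a chain of the fibrillar type V collagen, had 900.3, 915 and 918 CPM in SWNT/CpG, against 558, 530.4 and 500.1 CPM in SWNT/LP (0.78 ± 0.04, adjusted p = 1.25e-09). Col5a1 (0.94 ± 0.07), Col11a1 (1.06 ± 0.10) and Col1a2 (0.65 ± 0.05), further fibrillar chains, rose as well.

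Of 7 tested small leucine-rich proteoglycans, which bind collagen fibrils, 5 rose and 0 fell, with a median of 1.45. Ogn had 106, 91.5 and 82.8 CPM in SWNT/CpG, against 32.2, 28.8 and 30.7 CPM in SWNT/LP (1.51 ± 0.09, adjusted p = 5.41e-09). Fmod had 33.1, 24.8 and 20.8 CPM in SWNT/CpG, against 8.14, 3.75 and 2.67 CPM in SWNT/LP, the highest value of each group being its replicate 1 (2.23 ± 0.42, adjusted p = 0.00208). Prelp (1.45 ± 0.37) showed the same high replicate 1, and so did the matricellular gene Postn, with 630.2, 395 and 296 CPM in SWNT/CpG, against 160.1, 64.8 and 80.4 CPM in SWNT/LP (1.74 ± 0.42, adjusted p = 0.0101). The groups did not overlap in any of these genes.

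In the list of matricellular and other matrix proteins 13 of 24 rose and 6 fell, 3 falls being called without the run term. Thbs1, a large adhesive glycoprotein that can activate latent TGF-beta, had 6223, 6227 and 6084 CPM in SWNT/CpG, against 3108, 2661 and 2668 CPM in SWNT/LP (1.11 ± 0.06, adjusted p = 2.68e-09). Wisp1 (1.20 ± 0.07), a CCN family protein, the collagen-binding Sparc (0.69 ± 0.06) and fibrillin Fbn1 (0.67 ± 0.06) rose too. Of 33 matrix proteases and inhibitors 21 rose and 4 fell, 2 without SWNT/CpG replicate 3 or SWNT/LP replicate 2 or 3. Adamts12, a secreted metalloprotease, had 67.2, 67.3 and 67.6 CPM in SWNT/CpG, against 27.5, 23.3 and 24 CPM in SWNT/LP (1.43 ± 0.08, adjusted p = 1.66e-09). The procollagen-processing Tll1 (2.23 ± 0.20), the membrane-bound Adam12 (0.78 ± 0.09) and the gelatinase Mmp2 (0.96 ± 0.12) were higher, and the plasminogen activator Plat (-0.67 ± 0.08) was lower.

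Integrins are the receptors for these matrix proteins. Of 17 tested, 11 rose and 2 fell. The collagen-binding subunits rose most: Itga2 had 7.75, 5.39 and 4.87 CPM in SWNT/CpG, against 1.29, 0.611 and 0.98 CPM in SWNT/LP (2.47 ± 0.22, adjusted p = 2.12e-07). Itga11 had 7.38, 6.1 and 5.93 CPM in SWNT/CpG, against 1.83, 0.742 and 0.579 CPM in SWNT/LP (2.46 ± 0.33, adjusted p = 3.4e-05), and Itga10 rose by 0.83 ± 0.10. These subunits were scarce, and the abundant Itgav, a subunit of vitronectin receptors, rose less (0.40 ± 0.04), while the laminin-binding Itga6 fell (-0.91 ± 0.08).

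Genes of the contractile cytoskeleton were higher too. Of 24 SRF and smooth muscle contractile genes 17 rose and 2 fell, with a median of 0.38. The falls were 1 in run 2 alone and without SWNT/CpG replicate 1 or 3 or SWNT/LP replicate 2 or 3. Smooth muscle actin Acta2 had 2803, 3744 and 4052 CPM in SWNT/CpG, against 1357, 1415 and 1382 CPM in SWNT/LP. Even the low SWNT/CpG replicate 1 lay above all SWNT/LP libraries (1.44 ± 0.06, adjusted p = 1.67e-10). Per length, Acta2 stood at a mean of 931.5 RPKM in SWNT/CpG and 369.9 RPKM in SWNT/LP in the authors' table. The myosin light chain Myl9 (1.42 ± 0.08), the actin-binding Tagln (0.92 ± 0.07) and Cald1 (0.49 ± 0.04) and the intermediate filament gene Synm (2.08 ± 0.19) rose, whereas Srf itself was not called (0.01, adjusted p = 0.899). Cytoplasmic actin Actb was not called either (0.10 ± 0.06, adjusted p = 0.182), but was with the replicate block (adjusted p = 0.036).

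Among YAP targets 8 of 12 rose and 1 fell, with Ctgf (1.16 ± 0.10) and tissue factor F3 (0.74 ± 0.07) among the rises. The 8 rises were 5 without a filter on low counts and without SWNT/CpG replicate 3. Of 39 focal adhesion and actin motility genes 14 rose and 4 fell, the formin Diaph3 (-0.78 ± 0.05) lower and vinculin Vcl (0.35 ± 0.05) higher. The rises were 8 when fitted on these 2 groups alone and 9 without SWNT/CpG replicate 3, and the falls 2 without the run term, in run 2 alone and without any 1 library of SWNT/CpG, SWNT/LP replicates 2 or 3, CpG+SWNT/LP replicate 1 or either untreated library. Of 33 guidance genes 16 rose and 4 fell: the ephrin receptor Epha4 (0.93 ± 0.08) and the semaphorin Sema3d (1.41 ± 0.25) were higher, and Sema3a (-0.80 ± 0.11) was lower.

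Of 17 mesenchymal and epithelial transition genes 2 rose and 8 fell, with 5 falls in run 2 alone and without SWNT/LP replicate 2, and 4 without SWNT/CpG replicate 3. Their surest fall was the desmosomal plakin gene Ppl, an epithelial junction gene, with 6.72, 7.66 and 8.39 CPM in SWNT/CpG, against 20.1, 21.6 and 22.2 CPM in SWNT/LP (-1.42 ± 0.10, adjusted p = 1.06e-08). The mesenchymal factor Twist1 also fell (-0.41 ± 0.06), while Zeb1, a mesenchymal factor too, rose (0.17 ± 0.04). The list thus held falls of genes that mark either state.

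**Figure D3:**
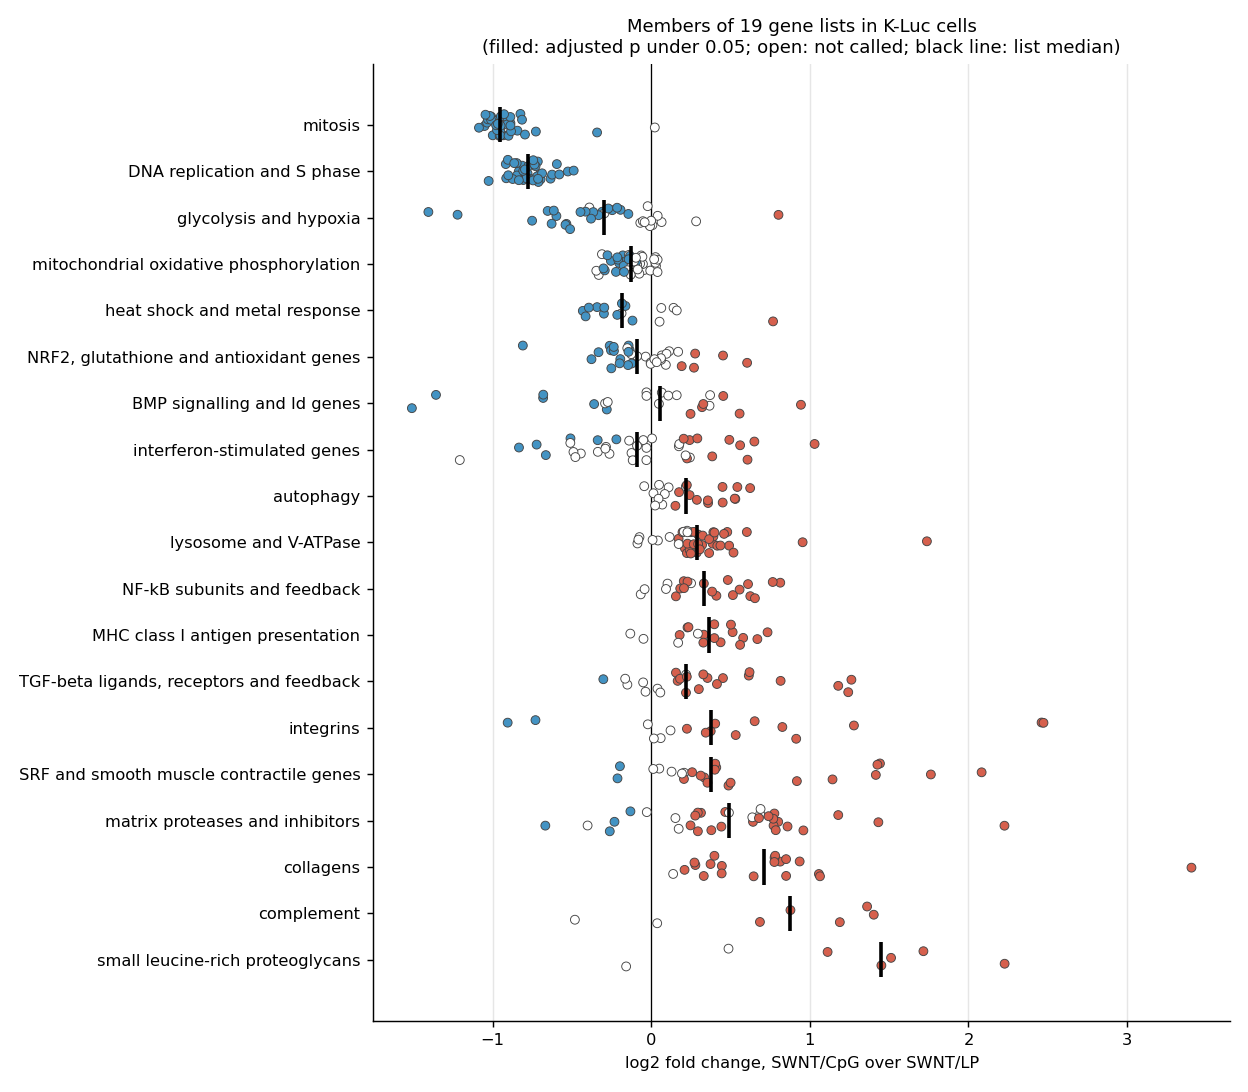
Log2 fold change, SWNT/CpG over SWNT/LP, of the tested members of gene lists, 1 point per gene, filled where the adjusted p is under 0.05, with the list median as a black line. Mitosis and S phase genes form narrow clouds with medians of -0.95 and -0.78, and collagens and small leucine-rich proteoglycans lie to the right with medians of 0.71 and 1.45.

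Tlr9, the receptor for CpG DNA, was listed at 0 in all 3 SWNT/CpG libraries and had 0.108, 0.0436 and 0 CPM in the SWNT/LP libraries, so it could not be tested, and with Hmgcs1 listed at 0 as well these values do not show that it is absent. Unc93b1, which carries endosomal TLRs to their compartment, was measured at about 5 to 6 CPM in both groups and was not called (0.16 ± 0.10, adjusted p = 0.265). Myd88, through which TLR9 signals, was called higher by a small amount (0.24). That call was lost without SWNT/CpG replicate 2 (adjusted p = 0.0931) and without SWNT/LP replicate 3 (adjusted p = 0.0656). The surface receptor Tlr2, which recognises bacterial lipoproteins, had 82.7, 107 and 91.7 CPM in SWNT/CpG, 36.4, 50.7 and 42 CPM in CpG+SWNT/LP, 40.8, 45.6 and 43.7 CPM in CpG alone, 31.2, 29.7 and 30.1 CPM in SWNT/LP, and 27.5 and 32.6 CPM in untreated cells. The SWNT/CpG libraries were above all of these others (1.72 ± 0.08, adjusted p = 1.67e-10). In the list of TLRs and CpG sensing genes 12 of 25 rose and 2 fell, and 7 rose without SWNT/CpG replicate 3.

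Of 21 NF-kB subunits and feedback genes 16 rose and 0 fell, with a median of 0.33. The inhibitor Nfkbie (0.81 ± 0.09), the ubiquitin-editing enzyme Tnfaip3 (0.77 ± 0.10) and the RNase Zc3h12a (0.61 ± 0.07), all induced by NF-kB and acting back on it, were among them. Without SWNT/CpG replicate 3, 11 rose, and with the replicate block 1 fell. Of 19 cytokine and chemokine genes 8 rose and 3 fell, but the list's median was -0.10. The rises were 5 with DESeq2 and without SWNT/CpG replicate 3, and the falls 5 without the run term or SWNT/LP replicate 1 and 7 with the replicate block. Tnf was listed at 0 in all 6 libraries. The membrane-bound chemokine Cx3cl1 had 234, 259 and 233 CPM in SWNT/CpG, against 143, 125 and 127 CPM in SWNT/LP (0.89 ± 0.07, adjusted p = 3.35e-08), while the cytokine Clcf1 fell (-0.54 ± 0.08).

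Of 21 cytokine and chemokine receptors 8 rose and 2 fell, 6 falls being called with the block, 4 with DESeq2, 5 without SWNT/LP replicate 1 and 1 without SWNT/CpG replicate 3. The gp130 gene Il6st (0.36 ± 0.05) was higher and the interleukin-18 receptor subunit Il18rap (-0.62 ± 0.11) lower. Of 16 TNF superfamily genes 3 rose and 3 fell, the decoy receptor Tnfrsf11b, which binds RANKL, having 15.8, 14.2 and 12.9 CPM in SWNT/CpG, against 5.18, 3.97 and 4.76 CPM in SWNT/LP (1.53 ± 0.15, adjusted p = 5.96e-07). The TNF superfamily falls were 1 with DESeq2, without the filter and without replicate 2 of either coating. Interferon-stimulated genes had no common direction, with 10 of 37 higher and 6 lower, 3 lower when fitted on these 2 groups alone and without SWNT/CpG replicate 3. The GTPase Ifi47 rose (1.03 ± 0.07) and Ifit2 fell (-0.34 ± 0.06).

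Genes of MHC class I presentation were higher: 14 of 18 rose and 0 fell, with a median of 0.37. The peptide-loading Tapbp had 211, 207 and 205 CPM in SWNT/CpG, against 144, 111 and 117 CPM in SWNT/LP (0.73 ± 0.07, adjusted p = 8.55e-07). The trimming peptidase Erap1 (0.58 ± 0.05) and the class I heavy chain H2-K1 (0.40 ± 0.06) rose too. Heavy chain genes are near copies of each other, so reads could be split between them. Of 7 tested complement genes 5 rose and 0 fell, 1 falling without SWNT/LP replicate 3. The central component C3 had 81.2, 112 and 94 CPM in SWNT/CpG, 39, 40.5 and 42.5 CPM in SWNT/LP, and 12.8 and 23.2 CPM in untreated cells, so that SWNT/LP lay between these other groups (1.40 ± 0.19, adjusted p = 0.000167).

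Lysosomal genes were higher by small amounts. Of 41 lysosome and V-ATPase genes 31 rose and 0 fell, with a median of 0.29, and in other settings 23 to 35 rose. The membrane protein gene Lamp2 (0.39 ± 0.04) and the proton pump subunit Atp6v0d1 (0.49 ± 0.07) were among the rises, both above the list's median. The papain-like cathepsin Ctsw stood apart from them, with 8.12, 8.85 and 8.9 CPM in SWNT/CpG, against 2.37, 2.84 and 2.89 CPM in SWNT/LP (1.74 ± 0.12, adjusted p = 1.84e-08). Of 22 autophagy genes 13 rose and 0 fell, with the early-step gene Wipi1 (0.62 ± 0.06) and Map1lc3b (0.53 ± 0.06), whose protein coats the autophagosome.

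Among 21 endocytosis and scavenger receptor genes 8 rose and 3 fell, 5 falls being called with the block. The share called was 52.4%, against 41.7% of all tested genes, and the list's median was 0.04. The collagen receptor Mrc2 (0.27 ± 0.05) rose and caveolin Cav1 fell (-0.23 ± 0.05). The largest rise of any gene chosen by size was in a membrane-binding annexin: Anxa8 had 18.8, 14.7 and 16.2 CPM in SWNT/CpG, 2.32, 2.46 and 1.32 CPM in CpG+SWNT/LP, 2.76, 2.05 and 2.05 CPM in CpG alone, 2.64, 2.05 and 1.83 CPM in SWNT/LP, and 3.75 and 1.73 CPM in untreated cells. This was a 6.95-fold difference between the coatings (2.80 ± 0.19, adjusted p = 1.14e-08). Of 10 annexins 5 rose and 3 fell, Anxa6 (0.75 ± 0.06) higher and Anxa1 (-0.31 ± 0.04) lower.

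Glycolysis and hypoxia genes were lower in SWNT/CpG, with 21 of 35 lower and 1 higher, 2 higher with the replicate block, and a median of -0.30. Ldha, lactate dehydrogenase, had 555, 619.7 and 599.8 CPM in SWNT/CpG, 675, 716 and 689 CPM in CpG+SWNT/LP, 997, 1042 and 1028 CPM in SWNT/LP, and 730.3 and 826 CPM in untreated cells. Of these 4 groups SWNT/CpG was lowest and SWNT/LP highest, above the untreated libraries (-0.75 ± 0.05, adjusted p = 5.1e-09). The list's summed level was 5087 to 5249 CPM in SWNT/CpG, 6551 to 6847 CPM in SWNT/LP and 5536 to 5751 CPM in untreated cells, so the distance between the coatings was made up on both sides of the untreated level.

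The oxygen sensor Egln3 (-1.22 ± 0.08), the lactate exporter Slc16a3 (-1.41 ± 0.20), Tpi1 (-0.63 ± 0.05) and Pkm (-0.41 ± 0.04), enzymes of glycolysis, were lower. The mitophagy gene Bnip3, chosen after its values were seen, had 33.7, 29.3 and 25.8 CPM in SWNT/CpG, 45.6, 44.2 and 42.1 CPM in SWNT/LP and 30.8 and 28 CPM in untreated cells, so its difference between the coatings (-0.65 ± 0.07) lay on the SWNT/LP side. The exception to the list was the stress gene Ndrg1 (0.80 ± 0.08). Of 45 oxidative phosphorylation subunits 17 fell and 0 rose, with 28 lower under the block, 26 without replicate 1 of every group and 11 without replicate 2 of either coating. Single falls were small, such as that of Cyc1, a subunit of complex III (-0.29 ± 0.04).

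Iron genes moved both ways, with 7 of 15 higher and 2 lower, 1 lower when fitted on these 2 groups alone and without SWNT/CpG replicate 3. Slc40a1, the iron exporter ferroportin, had 60.9, 45.5 and 41.2 CPM in SWNT/CpG, against 14.8, 9.99 and 9.31 CPM in SWNT/LP (1.92 ± 0.15, adjusted p = 1.94e-07). Tfrc, the transferrin receptor that brings iron in, had 354, 383 and 400.5 CPM in SWNT/CpG, against 608, 775 and 734 CPM in SWNT/LP (-0.86 ± 0.08, adjusted p = 6.53e-07). The groups were separate in both genes.

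Of 35 NRF2, glutathione and antioxidant genes 5 rose and 15 fell, and the falls were 8 or 9 without replicate 2 or 3 of either coating. Glutathione reductase Gsr fell (-0.38 ± 0.06), and the haem oxygenase Hmox1 (0.45 ± 0.08) rose, while the NRF2 target Nqo1 was called with the replicate block alone (-0.15 ± 0.09, adjusted p = 0.195, and 0.0106 with the block). Of 16 heat shock and metal genes 1 rose (2 with the block and without SWNT/LP replicate 1) and 10 fell, the chaperone gene Hsp90aa1 (-0.43 ± 0.06) among the falls and the small heat shock gene Cryab (0.77 ± 0.06) the rise. Of 35 ATF4 and unfolded protein genes 19 rose and 5 fell: the factors Xbp1 (0.75 ± 0.06) and Nupr1 (0.76 ± 0.07) were higher, and the serine pathway enzymes Psat1 (-0.65 ± 0.06) and Shmt2 (-0.54 ± 0.05) lower.

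Cholesterol and fatty acid synthesis split, with 5 of 30 higher and 6 lower, but these counts moved widely. The rises were 16 under the replicate block, 17 without replicate 1 of every group, 12 without SWNT/LP replicate 1, 9 without CpG replicate 1, 8 in run 2 alone and without SWNT/CpG replicate 1, and 3 without replicate 3 of either coating. The falls were 2 in run 2 alone and without SWNT/CpG replicate 1, and 3 when fitted on these 2 groups alone and without SWNT/CpG replicate 2 or 3 or SWNT/LP replicate 1. The sterol isomerase Ebp (0.52 ± 0.05) and Hsd17b7 (0.44 ± 0.06) rose, and the fatty acid elongase Elovl6 (-0.37 ± 0.05) fell. Of 25 lipid efflux, storage and oxidation genes 5 rose and 5 fell, 8 rising under the block, with Cpt1a (0.30 ± 0.04), which carries fatty acids into mitochondria, higher. The rises were 3 in run 2 alone and without SWNT/CpG replicate 1 or 2 or SWNT/LP replicate 2 or 3, and the falls 3 without the run term, when fitted on these 2 groups alone and without SWNT/CpG replicate 2 or SWNT/LP replicate 1. Of 9 aryl hydrocarbon receptor targets 1 rose and 1 fell. The falls were 3 with the block and 2 without CpG replicate 3, and 0 in run 2 alone, without the filter, and without any 1 library of CpG+SWNT/LP, SWNT/CpG replicate 2 or SWNT/LP replicate 1 or 3. Of 26 AP-1 and immediate early factors 9 rose and 10 fell, the AP-1 subunit Fosl1 (-0.94 ± 0.10) lower and Fosl2 (0.38 ± 0.06) higher, and 5 rose without replicate 3 of either coating.

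Some defining markers of macrophages were listed at 0, within the limit given above for such values. Of 14 macrophage markers 4 passed the filter on low counts, their defining members Adgre1, Tyrobp and Aif1 were listed at 0 in all 6 libraries, and the summed level of the list was 12.70 to 14.67 CPM in SWNT/CpG and 13.97 to 16.97 CPM in SWNT/LP. Of the 4 tested, 1 rose: Lyz2, a lysozyme gene of macrophages with a near copy, had 3.1, 2.74 and 3.06 CPM in SWNT/CpG, against 1.89, 1.53 and 2.27 CPM in SWNT/LP (0.60 ± 0.17, adjusted p = 0.0109), a call lost with DESeq2, without SWNT/CpG replicate 3 and without SWNT/LP replicate 2. Of 8 lymphocyte markers 1 passed the filter and was not called. Of 16 glioma stem and glial markers 10 were tested, and Sox10, Olig1, Olig2 and Aqp4 were listed at 0. The progenitor factor Sox2 had 103, 94.9 and 89.7 CPM in SWNT/CpG, against 122, 131 and 132 CPM in SWNT/LP (-0.47 ± 0.05, adjusted p = 1.05e-06), Sox9 fell too (-0.30 ± 0.06), and the proteoglycan Cspg4 rose (0.50 ± 0.10). Fibroblast and vessel markers had 2 of 7 higher, Pdgfrb among them, but 1 in most other settings, among them those without any 1 library of either coating but SWNT/LP replicate 3, and neuron markers 1 of 4, the microtubule gene Map2 (0.33 ± 0.04). Without SWNT/LP replicate 1 or CpG replicate 1, 1 macrophage marker fell, and without SWNT/CpG replicate 3 or CpG+SWNT/LP replicate 2, 1 lymphocyte marker. With the replicate block 1 macrophage and 1 lymphocyte marker fell, and 2 neuron, 2 glial and 1 fibroblast or vessel markers rose. The summed level of the fibroblast and vessel list was 699 to 751 CPM in SWNT/CpG and 442 to 565 CPM in SWNT/LP, and its part in the matrix and contractile rises was not tested.

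The comparison holds 2 steps, which the other nanotube group of the same fit separates: from the unjoined mixture to the joined form (SWNT/CpG over CpG+SWNT/LP), and from lipid-PEG nanotubes alone to the mixture (CpG+SWNT/LP over SWNT/LP). The first step is called joining below, but it also takes away the lipid-PEG (10 µg/mL in CpG+SWNT/LP, none in SWNT/CpG), so that joining and the loss of lipid-PEG cannot be told apart in it. By construction the log2 fold changes of the steps add up to that between the coatings, and each shares libraries with it, so the values stand side by side and one does not support another. The joining step called 2194 genes (17.7%), 1061 higher in SWNT/CpG (8.54%) and 1133 lower (9.12%), and 4009 with the replicate block. In run 2 alone it called 1177. Over 2-fold it called 62 genes higher (0.499%) and 40 lower (0.322%). The addition of the oligonucleotide called 3825 genes (30.8%), 1867 higher in CpG+SWNT/LP (15.0%) and 1958 lower (15.8%). Over 2-fold these were 113 (0.910%) and 24 (0.193%).

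Cell division genes fell in both steps. Of the 40 mitosis genes 38 were lower in SWNT/CpG than in CpG+SWNT/LP (median -0.46), and 39 were lower in CpG+SWNT/LP than in SWNT/LP (median -0.48). Cdc20 had 83.4, 83.6 and 84.5 CPM in SWNT/CpG, 108, 119 and 122 CPM in CpG+SWNT/LP and 165, 169 and 164 CPM in SWNT/LP, 3 separate groups. Its log2 fold change was -0.48 ± 0.04 in each step. Of the S phase genes 33 fell on joining, 14 to 40 in other settings, and 39 fell on addition. Collagens had 10 higher on joining (6 in run 2 alone and without CpG+SWNT/LP or SWNT/CpG replicate 1) and 1 lower (3 with the block, 0 without CpG+SWNT/LP replicate 3 and 2 without SWNT/LP replicate 1 or 2) and 14 higher on addition, with Col5a2 at 0.40 ± 0.04 and 0.38 ± 0.04.

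A second set of genes differed in the joining step, in which the lipid-PEG is also lost, and hardly on addition. For Pmepa1 the joining step was 1.37 ± 0.08 (adjusted p = 4.48e-08) and the addition -0.13 ± 0.08 (adjusted p = 0.264). Anxa8 had 3.02 ± 0.18 and -0.23 ± 0.25, Tll1 2.37 ± 0.19 and -0.14 ± 0.25, and Ctsw 2.02 ± 0.12 and -0.28 ± 0.15, none of these additions being called. Pdgfb had 1.33 ± 0.07 on joining and 0.24 ± 0.07 on addition (adjusted p = 0.0187), a call lost in some settings. The junction gene Ppl was lower on joining (-1.29 ± 0.09) and not called on addition (-0.13 ± 0.09).

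In Id1, Id2 and Id3 the steps had opposite signs. Id3 had 117, 121 and 120.5 CPM in SWNT/CpG, 277, 322 and 299.8 CPM in CpG+SWNT/LP, and 198, 215 and 182 CPM in SWNT/LP. The mixture was highest and the joined form lowest, with no overlap (-1.33 ± 0.06 on joining, adjusted p = 1.03e-09, and 0.64 ± 0.06 on addition, adjusted p = 1.88e-06). The difference between the coatings is thus smaller for Id3 than the joining step. Id1 was at -1.70 ± 0.12 on joining and 0.34 ± 0.11 on addition, the second called at an adjusted p of 0.0372 and not in every setting, and Id2 was at -1.86 ± 0.17 and 0.35 ± 0.16 (adjusted p = 0.116). Atoh8, chosen after its values were seen, had 27.3, 28.1 and 32.2 CPM in SWNT/CpG, 63.7, 67.6 and 72.5 CPM in CpG+SWNT/LP, and 41.6, 37.6 and 37 CPM in SWNT/LP (-1.22 ± 0.06 and 0.86 ± 0.06). In the BMP list 5 rose on joining (3 without the run term, in run 2 alone and without CpG+SWNT/LP replicate 1 or 3 or SWNT/CpG replicate 2) and 9 fell, while 9 rose and 0 fell on addition.

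Another set rose on addition and little on joining. Acta2 had 1.11 ± 0.06 on addition and 0.33 ± 0.06 on joining, the second lost without the run term. Fmod (2.13 ± 0.42), Itga11 (2.15 ± 0.33) and C3 (1.13 ± 0.19) rose on addition and were not called on joining, at 0.09 ± 0.32, 0.31 ± 0.23 and 0.27 ± 0.17. Ogn rose on addition (1.90 ± 0.09) and was lower on joining (-0.38 ± 0.08, adjusted p = 0.00269), a call lost without replicate 1 of every group. Of the contractile genes 18 rose on addition and 7 on joining. The 7 were 2 without the run term and without CpG+SWNT/LP replicate 1, 3 without SWNT/CpG replicate 3 and 4 without CpG+SWNT/LP replicate 2. Of the complement genes 5 rose on addition while 0 rose and 2 fell on joining (1 rose without CpG replicate 1, and 1 fell without SWNT/CpG replicate 1). Glycolysis and hypoxia had 22 lower on addition, Ldha at -0.52 ± 0.05, against 3 lower and 5 higher on joining, and 7 lower and 7 higher on joining with the block. The 5 were 2 without the run term, in run 2 alone and without any 1 library of CpG+SWNT/LP or SWNT/CpG replicate 1 or 3, and the 3 lower were 5 without SWNT/LP replicate 1.

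Some genes moved in opposite directions in the steps, and less between the coatings. The chemokine receptor Cxcr6 had 4.73, 5.77 and 4.17 CPM in SWNT/CpG, 1.16, 1.06 and 1.54 CPM in CpG+SWNT/LP, and 2.43, 2.57 and 3.12 CPM in SWNT/LP (1.96 ± 0.21 on joining, -1.11 ± 0.23 on addition, 0.85 ± 0.19 between the coatings). The angiogenic factor Vegfa, picked out after its values were seen, had 127, 129 and 129.8 CPM in SWNT/CpG, 93.5, 94.4 and 96.7 CPM in CpG+SWNT/LP, and 139, 128 and 132 CPM in SWNT/LP. It was lower in the mixture than with either coating (0.44 ± 0.05 on joining and -0.48 ± 0.05 on addition), and the coatings overlapped (-0.04 ± 0.05, adjusted p = 0.513). The acyl-CoA synthetase Acsbg1, chosen in the same way, had 1.26 ± 0.15 and -1.18 ± 0.15, against 0.07 ± 0.13 between the coatings. Of the cholesterol synthesis genes 13 were higher on joining (7 without SWNT/CpG replicate 2 or 3) and 8 lower on addition.

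**Figure D4:**
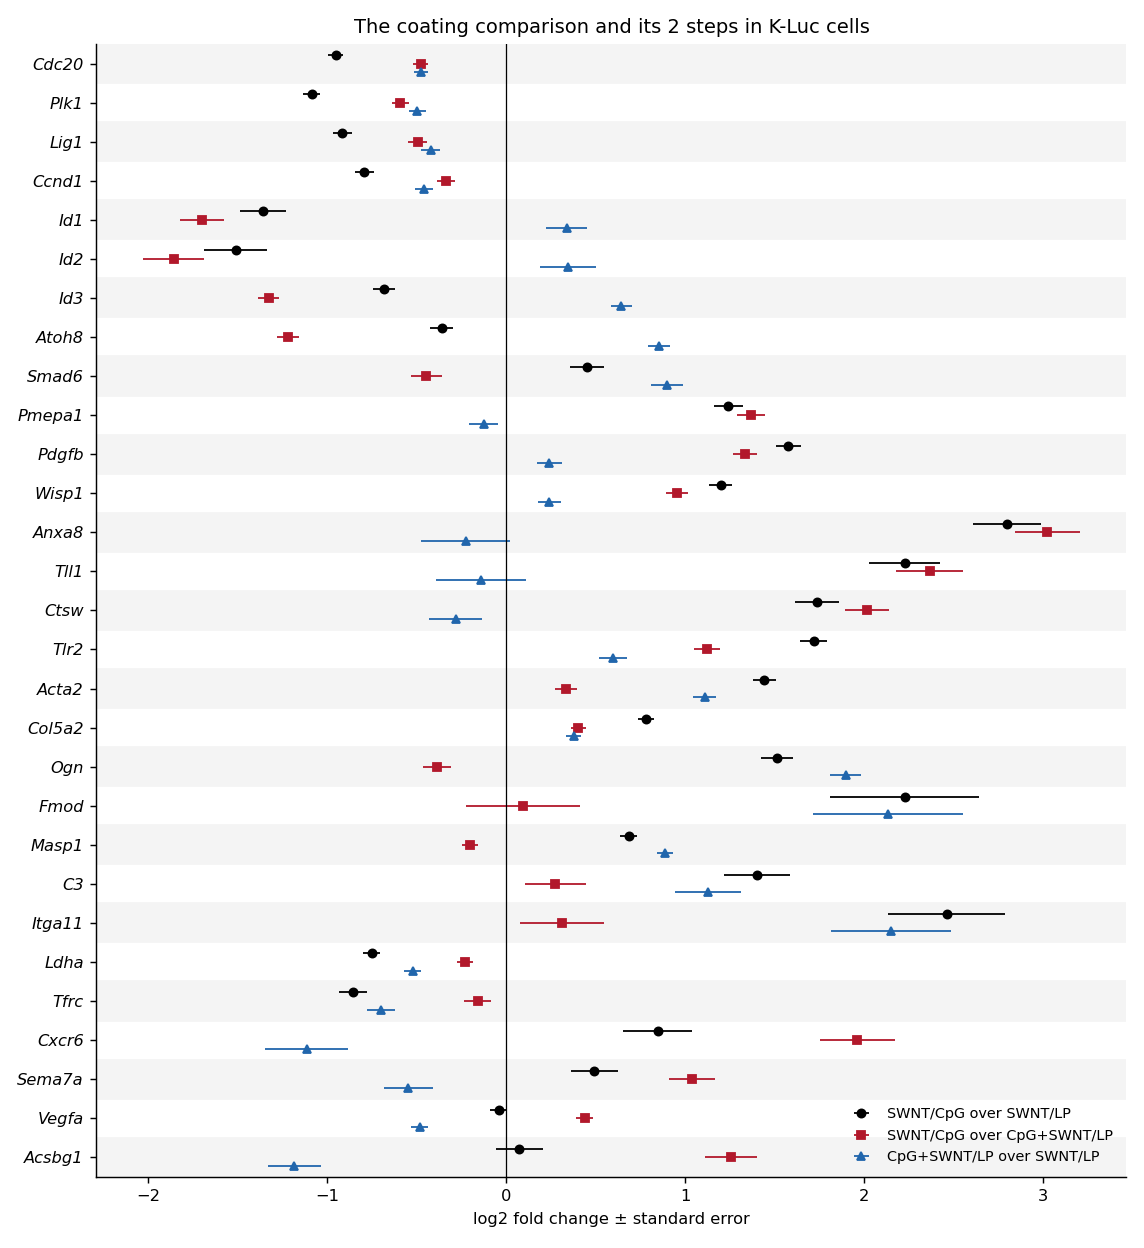
Log2 fold change ± standard error of selected genes for SWNT/CpG over SWNT/LP (black circles), SWNT/CpG over CpG+SWNT/LP (red squares) and CpG+SWNT/LP over SWNT/LP (blue triangles), from 1 fit, so that red and blue add up to black. Cdc20 and Col5a2 have red and blue on the same side, Pmepa1 and Anxa8 have blue near 0, and Id3, Atoh8, Vegfa and Acsbg1 have red and blue on opposite sides.

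The coating comparison was also made in RAW-Blue cells, and the difference between the lines was tested as an interaction over all 24 libraries, which called 2367 of 13350 genes (17.7%), 1041 more positive in K-Luc (7.80%) and 1326 more negative (9.93%). With DESeq2's size factors the split was 1273 and 1105, and with DESeq2 1331 and 1133. Line and treatment time cannot be told apart here. K-Luc levels are scaled in the K-Luc fit and RAW-Blue levels in the fit of both lines. Pmepa1 had the largest positive interaction of the genes named by rule, 4.21 ± 0.27 (adjusted p = 6.48e-10). In RAW-Blue it had 0.406 and 0.906 CPM in SWNT/CpG, against 5.2 and 5.5 CPM in SWNT/LP, the opposite direction to K-Luc at a far lower level. Id1 was reversed the other way, with 13.2 and 13.5 CPM in SWNT/CpG and 4.66 and 5.1 CPM in SWNT/LP in RAW-Blue (interaction -2.82 ± 0.22, adjusted p = 1.21e-08).

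The chemokine gene Ccl7 had 26.3 and 20.5 CPM in SWNT/CpG, against 1.93 and 2.6 CPM in SWNT/LP, in RAW-Blue cells. In K-Luc cells it had 5.32, 6.29 and 5.89 CPM in SWNT/CpG, against 4.69, 5.11 and 4.32 CPM in SWNT/LP, a rise of 0.33 ± 0.12 there (adjusted p = 0.0315), in the same direction and smaller (interaction -3.04 ± 0.25, adjusted p = 2.18e-08). Tlr2 rose in K-Luc and was lower in RAW-Blue, at 106 and 111 CPM in SWNT/CpG, against 141 and 140 CPM in SWNT/LP (interaction 2.09 ± 0.11, adjusted p = 2e-11). Pdgfb rose in K-Luc, and in RAW-Blue it had 206 and 176 CPM in SWNT/CpG, against 224 and 231 CPM in SWNT/LP (interaction 1.82 ± 0.13, adjusted p = 1.95e-09). Cdc20 fell less in RAW-Blue, at 77 and 81.4 CPM in SWNT/CpG, against 95.3 and 96.6 CPM in SWNT/LP (interaction -0.68 ± 0.12, adjusted p = 0.00023).

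**Figure D5:**
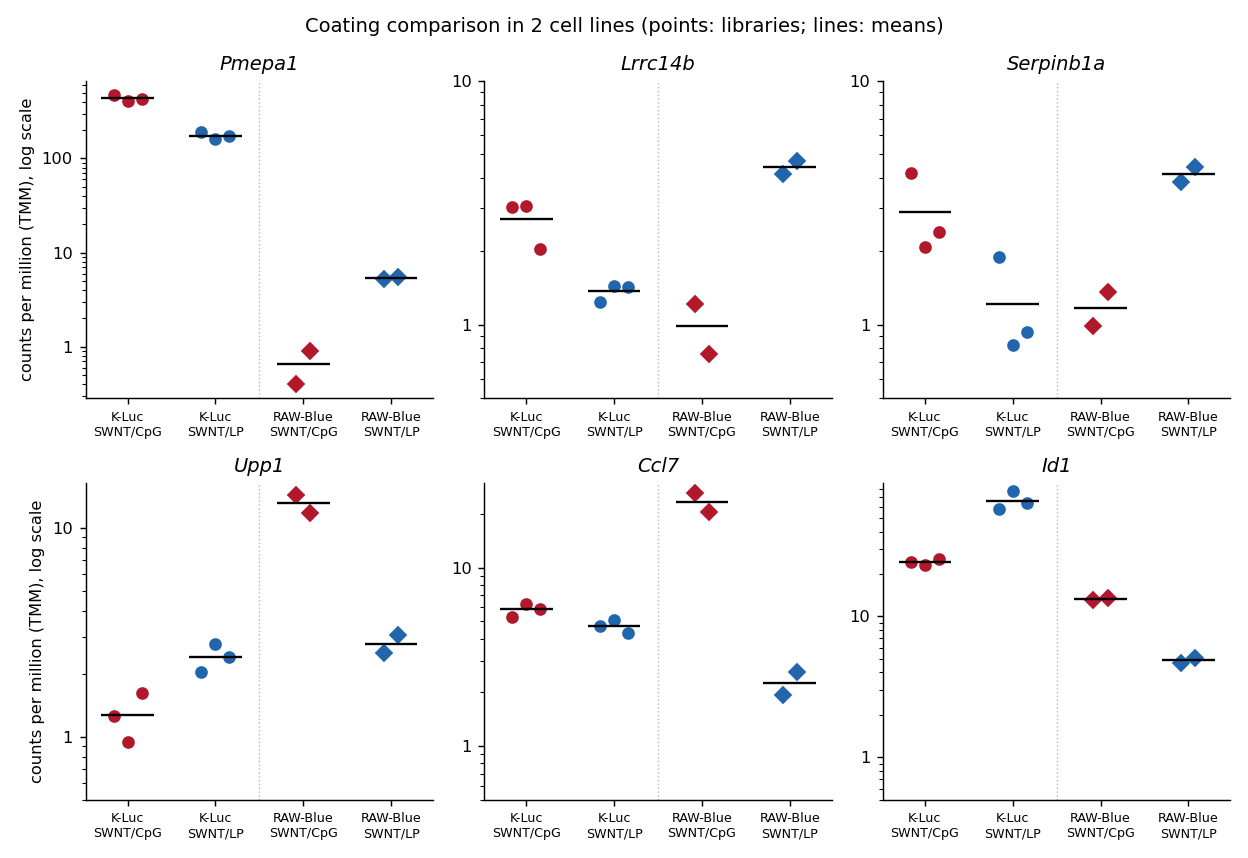
Level in CPM, on a log axis, of each SWNT/CpG (red) and SWNT/LP (blue) library in K-Luc (circles) and RAW-Blue (diamonds) cells, with group means as lines, for the genes with the largest interactions by rule. Pmepa1 and Id1 have their coatings in opposite order in the 2 lines, and Ccl7 has a wide gap in RAW-Blue and a narrow one in K-Luc. K-Luc levels are scaled in the K-Luc fit and RAW-Blue levels in the fit of both lines.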

How the data were processed

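Poly(A) RNA of 24 libraries was sequenced with a stranded kit, per the labels' protocols. The build mm9 and the tools TopHat2 2.0.14 and HTSeq 0.6.0 are named in the submitters' processing notes. The sources used here give neither annotation nor strand setting, so overlapping genes, near copies and antisense partners are uncertain. The deposited read counts (raw, 21669 genes) were tested, and the authors' RPKM served only for levels per length. All groups were taken from the labels. The K-Luc fit had group and run terms over 14 libraries (8 residual degrees of freedom, 12420 genes), in R 4.3.3 with edgeR 4.0.16: TMM, filterByExpr (minimum count 10, minimum total 15), robust quasi-likelihood, adjusted p under 0.05. The run term was called for 2155 genes. Every K-Luc library of run 1 was a replicate 1, while replicate 1 of SWNT/LP and of CpG was in run 2. The term thus also takes up what sets replicate 1 apart in the groups with both runs, but not in SWNT/LP. Run and replicate number cannot be told apart in it. Without the term 4814 genes were called between the coatings, against 5173 with it. Of 208 named calls 205 were kept then, and Nov, Cav2 and Abca1 lost theirs. The separate parts of run and replicate number in these fold changes were not tested. The interaction came from 1 fit of both lines (13350 genes, 13 residual degrees of freedom). The standard error is the size of the log2 fold change over the square root of F.

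Members and gene lists were chosen with earlier results of these data known. Not all of the named genes are printed. They include the 10 largest rises and falls whose mean log2 CPM reached 1, with no overlap between the groups and over 3 counts in each. For each list they include the 4 genes of smallest adjusted p and the extremes. The rest are the largest joining effects among genes called in both, the 3 largest interactions each way, and some genes fixed as values. Of those not printed, Tnfrsf19, Cxcl16, Cxcr4, Atf3 and Oasl1, among others, lost their calls in some settings. Other genes are marked as chosen after their values were seen, as were Bmp2, Bmp4, Bmp7, Bmpr1a, the SMAD genes, Srf, Col18a1 and some genes in the plot of the steps. Alternatives were DESeq2 1.42.0, its size factors, no filter, no run term, the compared groups alone, run 2 alone, a replicate block, each library left out, and, added after seeing the data, replicate 1 of every K-Luc group left out. Same-numbered libraries deviated together between the coatings (correlations 0.233, 0.135 and 0.167) and between SWNT/CpG and CpG+SWNT/LP (0.582, 0.289 and 0.393), so the numbers were taken to pair these groups, on the data alone. Between CpG+SWNT/LP and SWNT/LP the correlations of same-numbered libraries were 0.167, 0.158 and 0.0916. The highest of unlike-numbered libraries there was 0.09, so the numbers were taken to pair these groups too. The main fits hold no term for this pairing, and the replicate block is the alternative that does. The script was tested on simulated data. Promoters are RefSeq's on GRCm38.p6, and no coordinates of the authors' build are used.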

Additional observations from a re-analysis of the deposited data

Results flagged for a closer look

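The coating effect (log2 fold change, SWNT/CpG over SWNT/LP) differed between K-Luc and RAW-Blue cells, by edgeR's interaction test, in the following genes named by rule, each with K-Luc minus RAW-Blue. It was 4.21 for Pmepa1 and -2.82 for Id1, described above. It was 3.08 for Lrrc14b, a leucine-rich repeat gene at low levels, which rose in K-Luc (0.91) and fell in RAW-Blue (-2.18, adjusted p = 7.14e-06). It was 2.86 for Serpinb1a, a serpin with near copies, with 1.06 in K-Luc and -1.80 in RAW-Blue. It was -3.16 for Upp1, uridine phosphorylase, which fell in K-Luc (-0.93) and rose in RAW-Blue (2.22, adjusted p = 2.88e-06). It was -3.04 for Ccl7, with 0.33 in K-Luc (adjusted p = 0.135 in this fit of both lines) and 3.37 in RAW-Blue. All 6 kept their direction and call in every setting run. The part of treatment time, which differs between the lines, cannot be told apart from that of the line.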

How the results depend on the processing

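No named gene changed direction between the coatings where it was called in the main fit or in the alternative. Changes of sign in genes called in neither were not counted. The count of 5173 between the coatings was 4623 with DESeq2, 5192 with its size factors, 4896 without the filter, 4814 without the run term and 4400 with only these groups. With 1 library left out it was 3950 to 5883 (2025 to 2996 higher, 1925 to 2887 lower). Over 2-fold, 178 to 284 were higher and 99 to 143 lower. The lowest counts came without SWNT/CpG replicate 2, but the 99 came without SWNT/LP replicate 2. With the replicate block the count was 6829 (3466 higher, 3363 lower), and of 208 named calls the block kept 206, losing Aldh3a1 and Tek. Joining (2194) had 3695 with only its groups (1873 higher, 1822 lower), 4009 under the block (2062 and 1947), 1177 in run 2 alone (593 and 584), 705 higher without the run term, and 1423 to 2808 with 1 library left out (659 to 1456 and 749 to 1352). Addition (3825) had 6185 under the block (3020 and 3165) and 2517 to 5036 with 1 left out (1197 to 2383 and 1320 to 2653). The interaction (2367) had 1607 to 3413 with 1 left out (676 to 1520 and 906 to 1937). The causes were not tested. The block made 30 further joining and 24 further addition calls among 222 named genes and ended none. Depth limits genes under 1 CPM, at 14 to 23 counts per library.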
